A study of Homo sapiens with 8 samples.

Results

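The genes described here encode proteins of homologous recombination, the Fanconi anaemia pathway and the DNA damage checkpoint, with a mismatch repair pair, 37 genes taken by name. A probe set annotated to the gene symbol alone was at hand for 33 of them, and the other 4 were not analysed here. Where a gene had several such probe sets, that with the highest mean log2 signal over the 8 arrays stood for it. Of the 33 genes, 31 reached a signal of 50 on at least 1 of the 8 arrays, as did 9675 of 19775 genes in all. XRCC2 and XRCC3, which also act in recombination, stayed below it, with highest signals of 36.5 and 45.6, while the lowest maximum among the genes kept was 83.6 for FANCB. CLSPN, the checkpoint adaptor claspin, reached 50 on 1 adenovirus array only (50.3, LacZ without TGF-beta3), which left 30 genes among the 8982 that were tested.

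RNA came from HaCaT cells, an immortalized human epidermal keratinocyte line that is known to carry mutant p53. Cells were infected with an adenovirus for LacZ (the control), HRAS G12V (constitutively active RAS) or HRAS N116Y (dominant negative RAS), and each of these 3 infections was studied untreated and after 24 h with 5 ng/ml TGF-beta3. Separate cells received a control siRNA or p53 siRNA, with no adenovirus and no TGF-beta. Each of these 8 groups was 1 array, and no group was free of both virus and siRNA. Groups have no replicates and nothing shows separate cultures, so a p-value here reflects only how these 6 arrays scatter, and that scatter may be technical.

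Signals are linear probe set values, scaled so that the 2% trimmed mean of each array is 100, and 29.1% to 29.9% of probe sets on most arrays, and 28% on the p53 siRNA array, reached 50. The titles and the field for TGF-beta stimulation agree on the treated arrays, whereas a further label field states the reverse for the 6 adenovirus arrays and was not used. With the titles, all 5 measured genes of a TGF-beta response list rose with TGF-beta3, by 1.63 to 3.98 on the log2 scale. HRAS, read by 1 probe set, was lower on the HRAS G12V arrays (109 and 86.1) and the HRAS N116Y arrays (67.1 and 58.1) than on the LacZ arrays (316 and 287). What part of the transcript that probe set reads was not examined, so it does not check the inserts. The p53 knockdown itself was not analysed here. All 6 measured keratinocyte markers were well above 50, with summed signals of 19965 to 24268 untreated and 32422 to 37353 with TGF-beta3. Among markers of other cell types, 2 of 6 for fibroblasts, 1 of 4 for melanocytes, 1 of 4 for leukocytes and 0 of 4 for endothelium reached 50 on any array. The summed fibroblast markers were 80.5 to 175 untreated and 227 to 416 with TGF-beta3, led by COL1A1. Their part in the results below was not tested.

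Homologous recombination repairs a broken chromosome from its sister copy. BRCA1 with BARD1 starts the process, PALB2 brings further mediators, and strand invasion factors help the broken end pair with the matching sequence. The Fanconi proteins act when the strands of DNA are crosslinked: a core complex with the ubiquitin-conjugating enzyme UBE2T marks FANCI and its partner. ATR and ATM sense stalled forks and breaks and signal through CHEK1 and CHEK2. Many of these genes are transcribed mainly in dividing cells around S phase, and TGF-beta is known to hold keratinocytes in G1.

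TGF-beta3 lowered most of these repair genes in HaCaT cells whatever the vector. Of the 30 tested, 25 fell, 0 rose and 5 were not called (limma, additive model of vector and TGF-beta3, adjusted p under 0.05), where 17.4% of all tested genes fell and 16.3% rose. At an unadjusted p under 0.05, 27 were lower and 0 higher, where 23.3% of all tested genes were lower. The median log2 change was -1.04, against -0.0059 over all tested genes, and 15 genes fell at least 2-fold, as did 3.74% of all tested genes. For 26 of the 30 genes all 3 TGF-beta3 arrays lay below all 3 untreated arrays, which held for 22.2% of all tested genes. In RNA from whole cultures, fewer cells expressing a gene and less RNA per cell cannot be told apart. FANCB, FANCC and FANCM reached a signal of 50 on untreated arrays only. RAD54L and ATAD5 reached it on 1 TGF-beta3 array, short of the 2 arrays that the filter needs. All of these genes passed the filter through the arrays where they were high, so the count is not a share of all 37 genes.

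**Figure D1:**
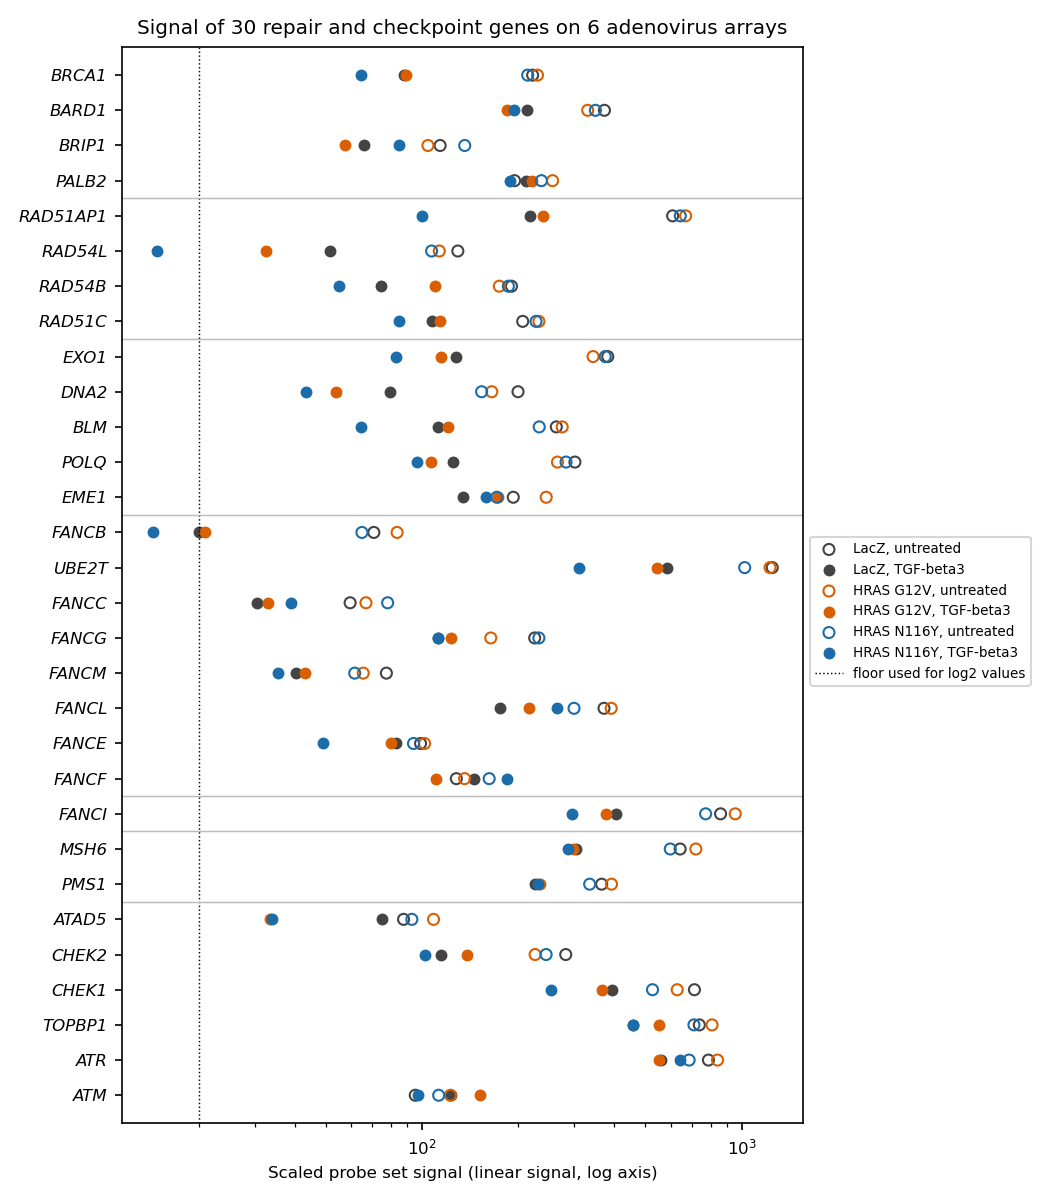
Scaled signal (log axis) of the 30 tested genes on the 6 adenovirus arrays, 1 point per array, open for untreated and filled for TGF-beta3, coloured by vector and grouped by role from BRCA1 partners at the top to checkpoint genes at the bottom; the dotted line is the floor of 20. Filled points lie left of open points for 26 genes, and those of PALB2, EME1, FANCF and ATM overlap.

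The BRCA1 group had 3 falling genes of 4. BRCA1, which directs the choice of recombination, had untreated signals of 222 in LacZ, 230 in HRAS G12V and 214 in HRAS N116Y cells, and 88, 89.4 and 64.3 with TGF-beta3. Its 3 untreated values sat close together and every treated value was below them, a fall of 2.79-fold (log2 change -1.48 ± 0.15 SE, adjusted p = 6.01e-05). BARD1, the RING partner of BRCA1, went from 372, 330 and 349 to 213, 184 and 193.5 in the same order of vectors, a log2 change of -0.83 (SE 0.12, adjusted p = 0.000445). BRIP1, a helicase that binds BRCA1, went from 114, 104 and 136 to 66.0, 57.4 and 84.7, a log2 change of -0.78 (SE 0.16, adjusted p = 0.00453). The groups did not overlap for either gene. PALB2, the bridge between the BRCA proteins, behaved otherwise: its untreated signals were 195, 256 and 236.5 and its treated signals 212, 221 and 188. These overlapped, with a log2 change of -0.14 (SE 0.14, adjusted p = 0.463).

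All 4 tested strand invasion factors fell, each at least 2-fold. RAD51AP1, which stimulates strand invasion, had signals of 609, 668 and 643 untreated and 218, 240 and 100 with TGF-beta3 for LacZ, HRAS G12V and HRAS N116Y. It was 3.69-fold lower on average, the largest change of the 30 genes at the floor of 20 (log2 change -1.88 ± 0.21 SE, adjusted p = 8.5e-05). At a floor of 10 FANCB and RAD54L, both at -2.00, fell further. The lowest of its 6 values was the treated HRAS N116Y array. RAD54L, a DNA translocase of recombination, went from 129.5, 113 and 107 to 51.4, 32.5 and 14.8, a log2 change of -1.85 (SE 0.23, adjusted p = 0.000178). Its last value lay below the floor of 20 that is set before taking log2, so the true ratio is larger, and with a floor of 50 the change was -1.2. RAD54B, its paralogue, went from 191, 175 and 186 to 74.7, 109.5 and 55.2 (log2 change -1.26 ± 0.20 SE, adjusted p = 0.000855). RAD51C, which also acts in strand invasion, went from 207, 232 and 227.5 to 107, 114 and 84.9 (log2 change -1.13 ± 0.15 SE, adjusted p = 0.000282). For these 4 genes no treated array reached an untreated one.

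Among nucleases, helicases and the end-joining polymerase, 4 of 5 fell. EXO1, the exonuclease that resects broken ends, had the smallest adjusted p of the 30 genes. Its signals were 381, 343 and 375 untreated and 128, 114 and 82.9 with TGF-beta3 (log2 change -1.78 ± 0.15 SE, adjusted p = 2.1e-05). DNA2, a second resection nuclease, went from 200, 165 and 154 to 79.5, 54.0 and 43.5 (log2 change -1.59 ± 0.17 SE, adjusted p = 6.67e-05). BLM, the helicase lost in Bloom syndrome, went from 263, 275 and 233 to 112, 121 and 64.5 (log2 change -1.42 ± 0.17 SE, adjusted p = 0.000117). POLQ, the polymerase of microhomology end joining, fell by 1.38 on the log2 scale (SE 0.14, adjusted p = 4.69e-05). In each of these 4 genes the treated signals were below the untreated ones without overlap. EME1, the partner of a nuclease that cuts joined DNA molecules, had 193, 245 and 171.5 untreated against 134, 173 and 158. These values overlapped, and the log2 change of -0.38 (SE 0.14, adjusted p = 0.0646) was not called. A second EME1 probe set with lower signals read 87.3, 67.8 and 106 untreated and 20.1, 41.8 and 32.4 treated, and with the mean of both probe sets the change was -0.95 (adjusted p = 0.00926). Without the HRAS N116Y pair EME1 was also called (-0.51, adjusted p = 0.00788).

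The Fanconi core and its enzyme had 6 falling genes of 8. FANCB, an X-linked core subunit, went from 70.7, 83.6 and 64.9 to 20, 20.9 and 14.4, a log2 change of -1.84 (SE 0.23, adjusted p = 0.000163). Its treated signals were at or near the floor, and with a floor of 50 the change was -0.54, still called. Averaging its probe sets, including a dim one with a highest signal of 21.7 on the 6 arrays, gave -1.19. The probe set of FANCB that was brightest on the 6 adenovirus arrays gave -1.53. UBE2T went from 1248, 1228 and 1023 to 583.5, 546 and 311 (log2 change -1.33 ± 0.13 SE, adjusted p = 4.95e-05). FANCC, a core subunit, went from 59.6, 66.8 and 78.1 to 30.4, 32.9 and 38.9 (log2 change -1.0 ± 0.20 SE, adjusted p = 0.00377), or by -0.44 with a floor of 50. Treated and untreated signals of these 3 genes did not overlap. The core subunits FANCG and FANCL and the translocase FANCM fell by 0.82, 0.70 and 0.78 on the log2 scale (adjusted p = 0.00328, 0.0082 and 0.0129). FANCL, the ubiquitin ligase of the core, and FANCM lost the call without the LacZ pair of arrays (adjusted p = 0.0518 and 0.11), and a floor of 50 put FANCM at -0.44. FANCE, at -0.52 (adjusted p = 0.0602), was not called and passed only with a floor of 50 (adjusted p = 0.0441). FANCF, an adaptor of the core, had 128, 136 and 162 untreated and 146, 111 and 185 treated, which overlapped fully (log2 change 0.02 ± 0.16 SE, adjusted p = 0.921). FANCI, a member of the pair that the core ubiquitinates, went from 860, 956 and 772 to 405, 375 and 295, a fall of 2.42-fold without overlap (adjusted p = 2.54e-05).

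Both tested mismatch repair genes fell. MSH6, which recognises single mispaired bases, went from 643, 720 and 598.5 to 304, 297 and 286, with 3 treated values almost equal (log2 change -1.14 ± 0.11 SE, adjusted p = 4.69e-05). The mean of all MSH6 probe sets, 2 of which stayed below the floor of 20 on every array, gave -0.57. PMS1, a relative of the mismatch repair nuclease, went from 365, 392 and 335 to 226, 233.5 and 230 (log2 change -0.66 ± 0.12 SE, adjusted p = 0.00195).

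Of 6 tested checkpoint genes 5 fell. CHEK2, the kinase downstream of ATM, went from 282, 226 and 245 to 115, 138 and 102.5 (log2 change -1.09 ± 0.16 SE, adjusted p = 0.000436). CHEK1, the kinase downstream of ATR, went from 712, 629 and 527 to 394.5, 366 and 253 (log2 change -0.90 ± 0.12 SE, adjusted p = 0.000215). ATAD5, which helps unload the sliding clamp from DNA, had 87.6, 109 and 93.0 untreated and 74.9, 33.4 and 33.9 treated. Treated values were lower throughout, by far less with LacZ than with the RAS vectors (log2 change -1.13 ± 0.27 SE, adjusted p = 0.0084), or -0.75 with a floor of 50. TOPBP1, an activator of ATR, fell by 0.63 (adjusted p = 0.00134). ATR itself fell by 0.40 (adjusted p = 0.0309), a call that ended without the LacZ pair (adjusted p = 0.17), without the HRAS G12V pair (adjusted p = 0.281) and in 4 of 10 processing alternatives, whose adjusted p ran from 0.031 to 0.0757. ATM, the kinase that responds to breaks, had 95.3, 123 and 113 untreated and 123, 152 and 97.3 treated, which overlapped (log2 change 0.15 ± 0.17 SE, adjusted p = 0.515). CLSPN, not tested, read 50.3, 46.7 and 47.3 untreated and 26.1, 35.2 and 22 treated.

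**Figure D2:**
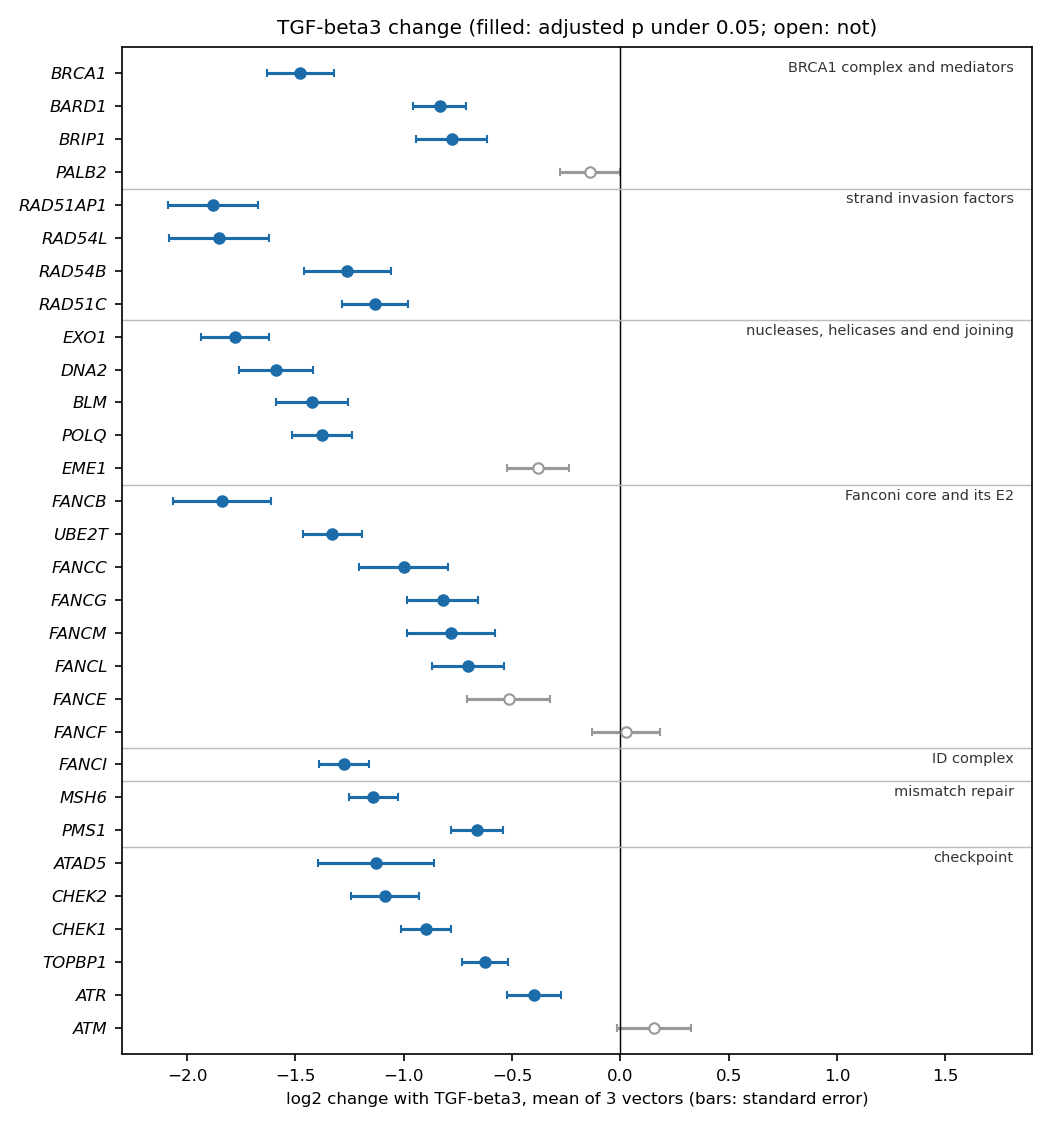
Log2 change with TGF-beta3 averaged over the 3 vectors for the 30 tested genes by role, with the standard error of limma's fit as bars, filled where the adjusted p was under 0.05. The 25 filled points run from -1.88 (RAD51AP1) to -0.40 (ATR), and the open points are PALB2, EME1, FANCE, FANCF and ATM.

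Further probe sets of the same genes read mostly the same direction. Of 38 further probe sets, 18 from 13 genes reached 50 on at least 1 of the 6 arrays, and 16 of these were lower with TGF-beta3 in all 3 vectors. Within a gene, 16 of the 18 had a mean log2 ratio within 0.5 of the probe set used. For FANCI the other probe sets gave mean log2 ratios of -1.43 and -1.42. The second FANCF probe set read 120, 121 and 168 untreated and 93.9, 86.8 and 155 treated, a mean log2 ratio of -0.32, so the probe sets of FANCF differ in sign. The further ATM probe sets gave means of -0.016 and -0.025, both close to 0. BRCA1's second probe set was dimmer and gave -0.82.

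The promoter windows of the 4 genes with the largest mean falls, all lower with TGF-beta3 in each of the 3 vectors, are printed. They are RefSeq windows on GRCh38.p14, running from 250 bases before to 50 bases after an annotated start, 5' to 3' on the gene's strand. RAD51AP1 is at chr12:4538640-4538939 on the + strand, RAD54L at chr1:46247438-46247737 on the + strand, FANCB at chrX:14873020-14873319 on the - strand and EXO1 at chr1:241847954-241848253 on the + strand. RAD54L and EXO1 had 2 windows each, and that with the most motif matches, or the first listed, was taken. Capitals mark matches on either strand to the E2F-like words TTTGGCGC, TTTCCCGC, TTTCGCGC and TTTGCCGC, to the cell cycle element CHR (TTTGAA) or to CCAAT.
RAD51AP1: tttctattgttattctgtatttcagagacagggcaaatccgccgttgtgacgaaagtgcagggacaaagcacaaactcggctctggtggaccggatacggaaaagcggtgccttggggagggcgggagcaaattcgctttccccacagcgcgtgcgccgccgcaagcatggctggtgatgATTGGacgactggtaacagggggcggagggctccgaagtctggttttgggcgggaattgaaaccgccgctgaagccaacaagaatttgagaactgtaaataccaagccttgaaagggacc
RAD54L: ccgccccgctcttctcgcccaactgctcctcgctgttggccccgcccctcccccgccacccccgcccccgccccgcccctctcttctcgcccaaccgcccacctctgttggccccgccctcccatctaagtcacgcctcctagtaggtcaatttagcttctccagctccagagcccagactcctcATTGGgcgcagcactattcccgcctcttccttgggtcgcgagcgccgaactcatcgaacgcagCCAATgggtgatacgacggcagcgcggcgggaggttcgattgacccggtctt
FANCB: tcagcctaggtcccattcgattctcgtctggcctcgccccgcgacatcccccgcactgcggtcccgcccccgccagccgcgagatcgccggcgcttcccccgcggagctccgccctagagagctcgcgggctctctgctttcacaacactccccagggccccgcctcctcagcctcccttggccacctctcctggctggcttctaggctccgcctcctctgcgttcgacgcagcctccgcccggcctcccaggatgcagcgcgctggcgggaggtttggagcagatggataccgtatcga
EXO1: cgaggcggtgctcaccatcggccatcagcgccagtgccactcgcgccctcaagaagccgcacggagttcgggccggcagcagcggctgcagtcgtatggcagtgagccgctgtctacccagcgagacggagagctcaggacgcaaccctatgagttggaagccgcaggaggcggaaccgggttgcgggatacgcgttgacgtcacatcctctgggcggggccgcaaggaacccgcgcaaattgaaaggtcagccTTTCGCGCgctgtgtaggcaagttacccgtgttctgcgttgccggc

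RAD51AP1 held 1 CCAAT match and RAD54L 2, EXO1 held 1 E2F-like match shortly after its start, and the FANCB window held no match to these letters. Of the 26 tested genes with a window, 4 (15.4%) held an E2F-like word, namely EXO1, MSH6, FANCC and TOPBP1, against 3.99% of all 27305 genes in the table. CCAAT was in 14 (53.8%) against 39.7%, and CHR in 5 (19.2%) against 18.2%. The genes of that table were not limited to those measured or tested here, so the sets compared are unlike. The median TGF-beta3 log2 change was -1.07 for genes with an E2F-like word, -1.0 with CHR and -0.99 with CCAAT, and -0.83 without the respective motif. These are matches of letters in 1 window size, not binding sites.

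The response was then read within each vector, 1 array against 1 array and without a test. With LacZ, 15 of 31 genes at 50 or more on either array were at least 2-fold lower, where 4.4% of all such genes were. HRAS G12V had 14 of 30 against 4.54%, and HRAS N116Y 18 of 30 against 4.94%. In none of the 3 vectors was a gene of the set 2-fold higher. Median log2 ratios of the set were -0.97, -0.86 and -1.06, where all genes measured in each pair had medians of -0.011, -0.018 and 0.0018. The treated HRAS N116Y array was the lowest of the 6 for 20 of the 30 tested genes, against 20.7% of all tested genes. These shares are not like for like. For 26 of the 30, against 22.2% of all tested genes, every treated array lay below every untreated one. The lowest array of such genes can only be 1 of the 3 treated arrays.

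The 5 genes with the widest range of response over the vectors, chosen after their values were seen, were ATAD5, RAD51AP1, RAD54L, RAD54B and FANCL. ATAD5 had a log2 ratio of -0.23 in LacZ cells but -1.70 and -1.46 under the RAS vectors. RAD51AP1 was 2.80-fold lower in LacZ cells, 2.79-fold lower under HRAS G12V and 6.43-fold lower under HRAS N116Y, or -1.48, -1.48 and -2.68 as log2 ratios. In that order RAD54L had -1.33, -1.80 and -2.42. At the floor of 20, RAD51AP1 and RAD54L thus had their largest ratio with dominant negative RAS. For RAD54L this order rests on dim treated signals of 51.4, 32.5 and 14.8, the last below that floor. A floor of 50 would make its treated signals under the RAS vectors equal, so its order depends on the floor. RAD54B had -1.35, -0.67 and -1.76, the smallest with active RAS. FANCL had -1.08, -0.85 and -0.18, the smallest with dominant negative RAS. At the floor of 20, 3 of 30 genes had a response with HRAS N116Y lower than with LacZ by at least 1 in log2. These were RAD51AP1, RAD54L and ATAD5, and the share of all tested genes was 1.7%. Treated HRAS N116Y signals were 14.8 for RAD54L and 33.9 for ATAD5, both below the alternative floor of 50. The count of 3 therefore depends on the floor, whereas RAD51AP1 read 100.1 on that array. The median difference of response between HRAS N116Y and LacZ was -0.24 for the set and -0.012 for all tested genes. Differences of response could not be tested, since 1 array per group leaves no residual spread for them.

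**Figure D3:**
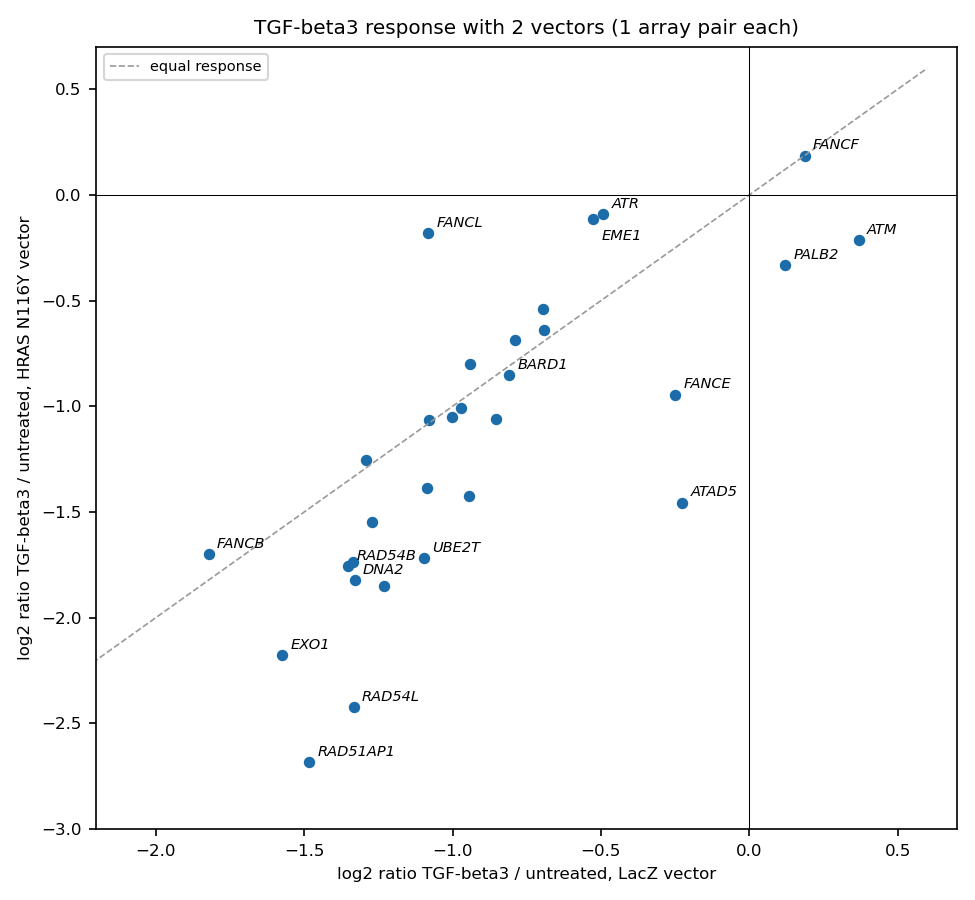
Log2 ratio of TGF-beta3 to untreated signal with the LacZ vector (x axis) and with HRAS N116Y (y axis) for the 30 tested genes, 1 pair of arrays each, with the dashed line marking equal responses and some genes named. At the floor of 20, RAD51AP1 (-1.48, -2.68), RAD54L and ATAD5 lie below the line, and FANCL (-1.08, -0.18) lies above it.

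The next question was whether active or dominant negative RAS shifts these genes. None of the 30 was called for any vector contrast in limma's fit. For HRAS G12V against LacZ, 0 genes of the set were called, where 0.0445% of all genes were. At an unadjusted p under 0.05 the set again had 0, where 6.39% of all genes passed. The log2 changes ran from -0.43 (RAD54L) to 0.36 (EME1, adjusted p = 0.806), with a median of 0.028. For HRAS N116Y against LacZ, 0 were called against 2.43% of all genes, and 5 were lower at an unadjusted p under 0.05, or 16.7% against 14.8% of all genes in either direction. The median log2 change of the set was -0.15, and 23 of 30 genes were below 0, or 76.7% against 46.8% of all genes. CHEK1 had the smallest adjusted p, with a log2 change of -0.54 (SE 0.14, adjusted p = 0.0862). UBE2T had -0.60 (adjusted p = 0.1) and RAD54L -0.82 (adjusted p = 0.195), or -0.16 for RAD54L with a floor of 50. The contrast pools both TGF-beta3 states, and they differed: RAD51AP1 was 0.08 higher with HRAS N116Y than with LacZ on the log2 scale untreated and had -1.12 under TGF-beta3. BLM had -0.18 and -0.80, and EXO1 -0.026 and -0.63.

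For HRAS G12V against HRAS N116Y, 0 genes of the set were called against 6.38% of all genes, and 5 were higher and 2 lower at an unadjusted p under 0.05, or 23.3% against 21.4% of all genes. The median log2 change of the set was 0.20, and 5 of 30 genes were below 0, or 16.7% against 51.0% of all genes. UBE2T had a log2 change of 0.54 (adjusted p = 0.0834), RAD51AP1 one of 0.66 (adjusted p = 0.162) and FANCF the lowest, -0.50. Fitted on only the 4 arrays of the vectors compared, which leaves 1 residual degree of freedom, UBE2T (adjusted p = 0.0454) and RAD51AP1 (adjusted p = 0.0189) passed here and UBE2T (adjusted p = 0.0331) passed for HRAS N116Y against LacZ. These contrasts pool both TGF-beta3 states, which differed. RAD51AP1 read 668 with HRAS G12V and 643 with HRAS N116Y untreated, but 240 and 100 with TGF-beta3. In the same order UBE2T read 1228 and 1023 untreated, and 546 and 311 with TGF-beta3. The comparisons with LacZ share its arrays. Those with HRAS N116Y likewise share its arrays, so the shifts of the set in both are not separate observations.

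The repair genes were set beside other lists of the same fit, described without a test. Over all tested genes, 17.4% fell and 16.3% rose. Of 27 further recombination and crosslink repair genes 15 fell and 0 rose (median -0.50), led by PARPBP (-1.57), RMI2 (-1.28) and GEN1 (-1.18). Of 19 further checkpoint and damage signalling genes 12 fell and 0 rose (median -0.83), with the phosphatase CDC25A at -1.56 and TIPIN, a fork protection factor, at -1.34. The other repair routes varied. End joining genes had 2 lower (28.6%) and 1 higher (14.3%) of 7, with LIG4, its ligase, up by 0.64. Nucleotide excision repair genes had 3 higher (ERCC1, ERCC5 and CETN2, by 0.69, 0.55 and 0.47) and 0 lower of 14. The share that rose, 21.4%, was not far from that of all tested genes. ERCC1 moved little with HRAS N116Y, from 298 untreated to 312 with TGF-beta3. Base excision repair genes had 7 lower and 0 higher of 12, with NEIL3 at -1.87 and PARP1 at -1.17. The 2 other mismatch repair genes tested, MLH3 and MSH3, had log2 changes of -0.08 and -0.06 and were not called.

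Growth genes moved with the set. All 29 DNA replication genes fell (median -1.27), with ORC1 at -1.86 and MCM2 at -1.70, and so did all 10 proliferation markers (median -1.49), with BUB1B at -1.83 and MKI67 at -1.73. The summed signal of the 10 markers was 13326, 15528 and 12621 untreated and 5723, 6879 and 3726 with TGF-beta3 for LacZ, HRAS G12V and HRAS N116Y, so it too was lowest on the treated HRAS N116Y array. The part of growth state in the fall of the repair genes was not tested. The E2F, RB and DREAM regulators were mixed: of 17, 7 fell, 1 rose and 9 were not called (median -0.21). Their largest falls were E2F2 at -1.79, MYBL2 at -1.76 and RBL1 at -1.60. The CDK inhibitor CDKN1A rose by 2.43 and CDKN2B by 2.55.

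**Figure D4:**
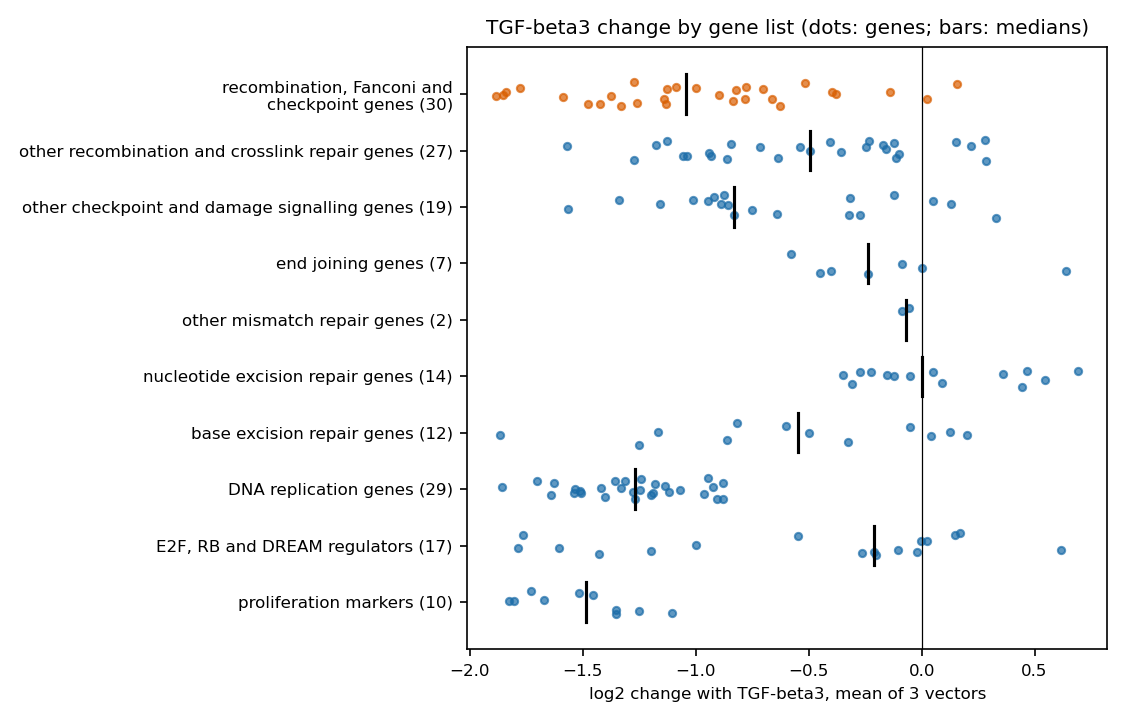
Log2 change with TGF-beta3 averaged over 3 vectors (x axis) for each tested gene of 10 lists, with the median as a black bar and the number of tested genes in brackets. The recombination, Fanconi and checkpoint genes have a median of -1.04, DNA replication genes one of -1.27 and nucleotide excision repair genes one near 0.

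The siRNA pair asked what lowering p53 changes in these cells. It holds 1 array per condition, so nothing was tested. The actin 3' to 5' signal ratio was 3.68 and 4.01 on these arrays against 1.16 to 1.39 on the adenovirus arrays, so no siRNA array was set against an adenovirus array. None of 31 genes at 50 or more on either array was 2-fold apart, against 8.51% of all such genes, and the median log2 ratio was -0.0099. At a log2 ratio of 0.5 either way, a limit set after the values were seen, there were 4 genes against 33% of all genes. CLSPN had 94.9 with control siRNA and 182 with p53 siRNA, 1.92-fold higher. CHEK1 had 435 and 745, 1.71-fold higher. FANCL had 390 and 202, 1.93-fold lower, and BRCA1 454 and 285, 1.59-fold lower. The share of the set beyond that limit was below that of all genes, and the 4 values are single readings. Averaging its probe sets gave CHEK1 a log2 ratio of 0.27 instead of 0.78. Its further probe sets read 257 and 393, 25.1 and 19.0, and 376 and 383. RAD51AP1 (1264 and 1105), FANCI (1323 and 1309) and MSH6 (821 and 786) were nearly equal on both arrays. The summed proliferation markers were 14803 and 14023.

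**Figure D5:**
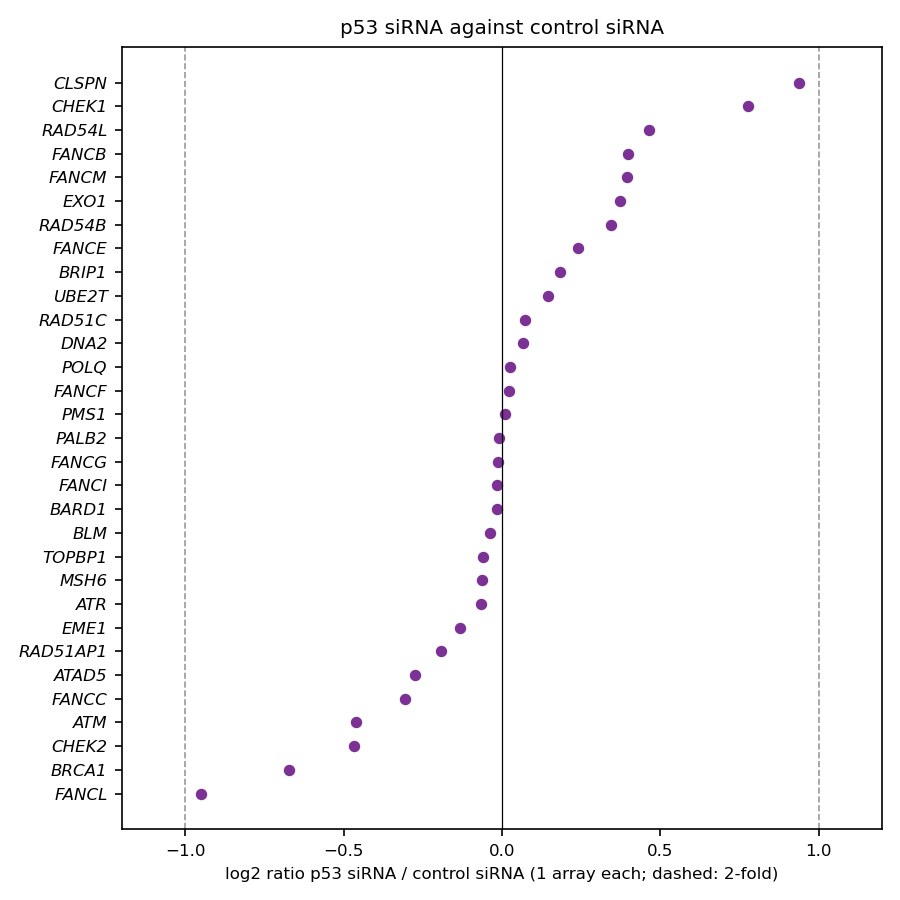
Log2 ratio of the p53 siRNA array to the control siRNA array (x axis) for the 31 genes at 50 or more on either array, 1 point per gene, sorted, with dashed lines at 2-fold. All points lie between FANCL at -0.95 and CLSPN at 0.94.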

How the data were processed

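Expression was measured in 8 HaCaT samples on Affymetrix arrays. The authors deposited 1 linear signal intensity per probe set, which per the submitters' processing notes came from MAS5 5.0, and every array has a 2% trimmed mean near 100. Depth does not apply to arrays, and their number limits precision.

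Signals were rescaled to a trimmed mean of 100, floored at 20 and put on the log2 scale, which makes changes of dim genes smaller. Probe sets took gene symbols from the platform annotation, updated by gene identifier through RefSeq's gene table (41043 of 41097 single-symbol probe sets matched); 1801 with several symbols and 11777 unnamed here were left out. Genes reaching 50 on 2 or more of the 6 adenovirus arrays entered a limma 3.58.1 fit (R 4.3.3) on vector and TGF-beta3, with a trended prior (8.74 degrees of freedom) and Benjamini-Hochberg adjustment over 8982 genes. The 2 residual degrees of freedom hold interaction as well as noise. Single pairs were described by log2 ratios. The genes, lists, alternatives and naming rule (values on every array for the 3 largest changes and the smallest per role, for genes called between vectors and for genes 2-fold apart in the siRNA pair) were chosen with earlier results of these data known. On simulated data of 8982 genes with 200 changed, the TGF-beta3 contrast recovered 99% of changes of 1 and 29% of changes of 0.5 on the log2 scale, with 7.91% and 9.38% of calls false. Each rate came from 1 draw with independent noise and no interaction. Far fewer genes were changed than the 3033 called in the real fit, so these rates may not hold for it. Alternatives covered scaling, floor, filter, probe sets, prior, block and left-out pairs.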

Additional observations from a re-analysis of the deposited data

Results flagged for a closer look

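Genes are listed here when their TGF-beta3 response had opposite signs in different vectors, each from 1 pair of arrays. These differences were not tested. The log2 ratios of ATM were 0.37 in LacZ cells, 0.31 under HRAS G12V and -0.21 under HRAS N116Y. In the same order PALB2 gave 0.12, -0.21 and -0.33. FANCF gave 0.19, -0.30 and 0.19. All 3 genes were among the 5 not called for TGF-beta3. Groups of 1 array allow no search for outlying samples.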

How the results depend on the processing

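The count of 25 falling genes lay between 21 and 26 under quantile normalization, floors of 10 and 50, averaged probe sets, filters of 100 on 2 arrays or 50 on 1 of 8, a prior without trend and no vector term. The same range held for 3 alternatives chosen after seeing the data, a filter on the mean of the 6 arrays, probe sets chosen on these arrays, and no filter but without genes at the floor on all 6 arrays. These counts have unlike bases. Of the set, 25 genes were tested with the filter of 100, 26 with averaged probe sets and 31 with 50 on 1 of 8. The filter on the mean tested 28, and leaving out only genes at the floor tested 33. With no filter at all the count of falling genes was 0, and 8196 of the 19775 genes then fitted had no spread because they were at the floor on all 6 arrays. Leaving out 1 vector pair gave 22 to 26. Of the 25 genes, 24 stayed called in every processing alternative in which they were tested other than the fit with no filter at all, and ATR did not. FANCF, never called, turned to -0.15 when its probe sets were averaged, and to -0.0558 and -0.0563 without the HRAS N116Y or LacZ pair, against 0.19 without the HRAS G12V pair. On only the 4 arrays of the vectors compared, 2 members were higher for HRAS G12V against HRAS N116Y and 1 was lower for HRAS N116Y against LacZ, and the other alternatives gave 0. Over all genes, calls in either direction ranged from 0 to 3971 for TGF-beta3 (3033 reported), 0 to 127 for HRAS G12V against LacZ (4), 0 to 432 for HRAS N116Y against LacZ (218) and 0 to 785 between the RAS vectors (573). Arrays below the floor of 20 limit the changes of FANCB and RAD54L. The reported fit pairs the treated and untreated array of each vector through its vector term, and the count without that term was also 25. The labels give no replicate numbers to pair by.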
